A study of Mus musculus with 8 samples.

Results

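Collagens, the main structural proteins of the extracellular matrix, were described in mouse embryonic stem cells (mESCs) with and without Hira, before and after differentiation into beating cultures. The members are the genes whose symbol has the form of a collagen alpha chain, Col followed by a type number, the letter a and a chain number. This gave 44 of the 24421 genes in the expression table. By the kind of assembly they form, 11 encode chains of fibrillar collagens, 6 encode the type IV chains of basement membranes and 27 encode other collagens. These others comprised 9 FACIT chains, 6 beaded filament chains, 4 transmembrane chains, 3 network-forming chains, 2 multiplexins, 1 anchoring fibril chain and 2 chains given no class here.

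A collagen molecule is a rope of 3 chains, each a long run of repeats with glycine at regular steps. Fibrillar collagens are trimmed outside the cell and line up into the cables of skin, bone, tendon, cartilage and the heart's connective tissue. Type IV collagen instead keeps its ends and joins into the flexible sheet beneath epithelia, endothelium and muscle, and FACIT, beaded filament and transmembrane collagens decorate fibrils or tie cells to them. Chains are hydroxylated and folded in the endoplasmic reticulum, cross-linked by lysyl oxidases, bound by integrins and discoidin domain receptors and cut by matrix metalloproteinases.

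Hira encodes a chaperone that places the histone variant H3.3 into chromatin independently of DNA replication. Poly(A) RNA was read from W9.5 cells (WT) and from Clone104 cells, a single Hira-null clone, so that whatever else sets this clone apart from W9.5 cannot be told apart from the genotype. Both lines carry H3.3 with an HA tag. Each was harvested undifferentiated at day 0 and after 15 days of hanging drop differentiation, with 2 biological samples in each of 4 groups, 8 libraries in all, and the day 15 cultures are mixtures of cell types. Levels are given as FPKM, fragments counted per gene scaled by gene length and library size, which allows genes to be compared with each other.

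Libraries held 6913859 to 11106287 recovered fragments (median 8785225), and replicate libraries were further apart than fragment sampling alone gives (chi-square per degree of freedom 2.89 to 5.93). Hira itself was lower in Hira-null than in WT libraries at day 0, at 12.4 and 11.4 against 27.3 and 28.5 FPKM. At day 15 it was not, at 16.7 and 19.8 FPKM in the libraries labelled Hira-null against 15.8 and 15.5 FPKM in WT, a log2 fold change of 0.20 with a standard error of 0.11 (adjusted p = 0.167 by limma). The label of the day 15 libraries is therefore not backed by the Hira level, and every day 15 direction given here is between libraries as labelled. Hira RNA was present in Hira-null at day 0 as well, at 0.426 of the WT mean, so its level alone cannot settle a label. Tests were made with limma on log2(FPKM + 1), with p-values adjusted by Benjamini-Hochberg across 14337 genes, those with an FPKM of at least 1 in 2 libraries or more. Of the 44 collagen genes, 40 were tested (11 fibrillar, 4 basement membrane and 25 others) and Col4a3, Col4a4, Col19a1 and Col28a1 were not. The filter keeps a gene that reaches this level in 1 group alone, so counts over tested genes are descriptions of those genes. For genes near or below FPKM 1 a log2 fold change of FPKM + 1 is smaller than that of FPKM itself.

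The collagens as a whole made up a different amount and a different mix of RNA in each group. Their summed level was 859.95 and 840.3 FPKM in WT at day 0, 289 and 275 FPKM in Hira-null at day 0, 3604 and 3254 FPKM in WT at day 15 and 1503 and 1960.4 FPKM in the libraries labelled Hira-null at day 15. No 2 groups overlapped, and at both days the WT libraries held more. As a share of the summed FPKM of all genes this was 0.174% and 0.175%, 0.0572% and 0.0549%, 1.014% and 0.936%, and 0.435% and 0.556% in the same order. No test was run on these sums. With 2 libraries against 2, the smallest two-sided p of an exact permutation test is 0.333. In whole cultures, fewer cells of a type and less RNA per cell cannot be told apart.

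By summed FPKM, type IV chains took most of the WT pool at day 0 and fibrillar chains most of both pools at day 15. Basement membrane chains made 80.2% ± 0.0188 of summed collagen FPKM in WT at day 0 (mean ± SD, n = 2 here and below), 15.4% ± 0.651 in Hira-null at day 0, 25.9% ± 0.342 in WT at day 15 and 17.7% ± 0.357 in the libraries labelled Hira-null at day 15. Fibrillar chains made 6.43% ± 0.0477, 16.1% ± 0.303, 63.2% ± 0.594 and 63.2% ± 0.753 of it in that order. These shares follow the few highest genes. On summed log2 values type IV chains made 27.6% in WT at day 0 and fibrillar chains 36.2% and 37.6% at day 15, and without Col1a1 fibrillar chains made 46.9% of summed FPKM in WT at day 15. Other collagens made 68.5% ± 0.953 of the pool in Hira-null at day 0, mostly Col18a1, against 13.4% ± 0.0289 in WT. The leading gene was Col4a1 in WT at day 0, Col18a1 in Hira-null at day 0 and Col1a1 in WT at day 15, each clear of the next gene in both libraries. In the libraries labelled Hira-null at day 15, Col3a1 and Col1a1 led with overlapping levels (294 ± 55.2 and 289.9 ± 65.0 FPKM).

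**Figure D1:**
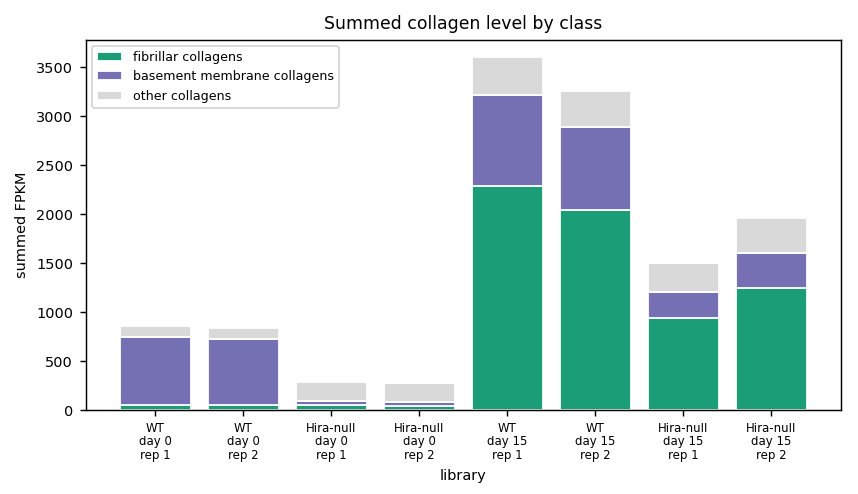
Summed FPKM of fibrillar, basement membrane and other collagen genes (vertical axis, stacked bars starting at 0) in each of the 8 libraries (horizontal axis, by genotype label, day and replicate). The WT libraries at day 0 are mostly basement membrane collagen, the Hira-null libraries at day 0 sum to 289 and 275 FPKM, and fibrillar collagen makes up most of all 4 day 15 libraries.

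Of the 40 collagen genes tested at day 0, 8 were higher and 6 lower in Hira-null, which is 20% and 15%, against 20.8% and 19.4% of all genes tested. At day 15, 10 were higher and 18 lower in the libraries labelled Hira-null, which is 25.0% and 45.0%, against 18.6% and 18.8% of all genes. Between day 0 and day 15, 31 rose and 4 fell in WT, against 36.1% and 33.4% of all genes, and 29 rose and 8 fell in Hira-null, against 37.5% and 36.4%. The genotype difference itself moved between the days for 26 collagen genes, up for 11 and down for 15, against 17.5% and 17.7% of all genes. The median log2 fold change over the tested collagens was 0.00 at day 0 and −0.07 at day 15 between genotypes, and 2.32 in WT and 2.57 in Hira-null between days, where all genes tested had medians of 0.01, 0.01, 0.03 and 0.01. The 8 genes higher at day 0 were 5 without Hira-null day 0 replicate 1, the 4 that fell in WT were 2 without WT day 15 replicate 2, and the 15 of the day by genotype comparison were 9 without WT day 15 replicate 1.

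**Figure D2:**
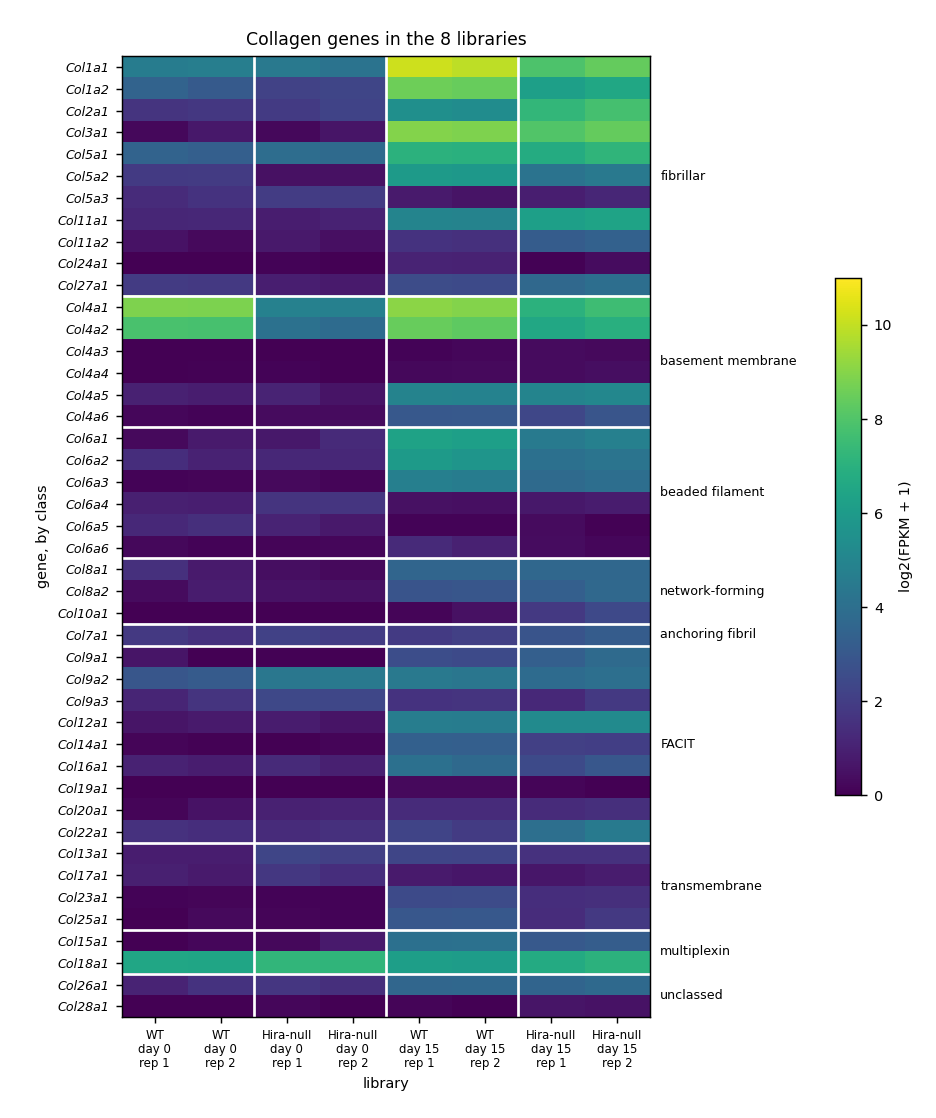
Level of each of the 44 collagen genes (rows, grouped by class) in each of the 8 libraries (columns) as log2(FPKM + 1), by colour from 0 to 11. At day 0, Col4a1 and Col4a2 are above 80 FPKM in the WT libraries alone and Col18a1 in all 4 libraries, and Col3a1, Col6a1, Col6a2 and Col6a3 stay below 2 FPKM in every day 0 library and above 10 FPKM in every day 15 library.

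Type I collagen, the main fibril of bone, skin and scar, is built from the products of Col1a1 and Col1a2. Col1a1 (chr11:94797538-94814356 in mm9) read 23.9 and 25.3 FPKM in WT and 20.8 and 17.2 FPKM in Hira-null at day 0, then 1138 and 970.0 FPKM in WT and 244 and 336 FPKM in the libraries labelled Hira-null at day 15. Col1a2 (chr6:4454814-4491543) read 10.2 and 7.62 FPKM in WT and 3.48 and 3.98 FPKM in Hira-null at day 0, then 380.3 and 345 against 72.0 and 93.4 FPKM at day 15. Both genes separated the genotypes without overlap at each day, with WT high. At day 15 the WT mean was 3.64 times the other for Col1a1 (−1.87 ± 0.15 SE on the log2 scale, adjusted p = 7.56e-05) and 4.39 times for Col1a2 (−2.13 ± 0.16 SE, adjusted p = 5.31e-05). At day 0 Col1a2 was lower in Hira-null (−1.06, adjusted p = 8.37e-04), while Col1a1 did not pass the test (−0.36, 95% interval −0.70 to −0.03, adjusted p = 0.0818). Over the 15 days Col1a1 rose by 5.36 on the log2 scale in WT and 3.85 in Hira-null, and the genotype difference widened by 1.51 (adjusted p = 0.00126). Col1a1 shares exon sequence with the gene model Gm17329 on the other strand, and the sources read do not say whether fragments were counted by strand.

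Type III collagen, encoded by Col3a1 alone, forms the thin pliable fibres of vessel walls and young connective tissue, and type V chains start and limit the fibrils of type I. Col3a1 (chr1:45368383-45406551) stood at 0.195 and 0.617 FPKM in WT and 0.183 and 0.552 FPKM in Hira-null at day 0, and at 495 and 468 against 255 and 333 FPKM at day 15. It had the widest change over the 15 days among the collagens tested, a rise of 8.44 on the log2 scale in WT and 7.75 in Hira-null. It was lower in the libraries labelled Hira-null at day 15 (−0.72 ± 0.19 SE on the log2 scale, adjusted p = 0.0168), a call lost without WT day 15 replicate 1 (adjusted p = 0.16) or 2 (0.125), without Hira-null day 15 replicate 1 (0.0898), and with a pseudocount of 0.1 (0.229) or 0.5 (0.0545) or quantile normalization (0.0582). Its neighbour Col5a2 (chr1:45431166-45560127), which lies 24614 bases away with the end of the gene facing that of Col3a1, read 2.67 and 2.72 FPKM in WT and 0.418 and 0.396 FPKM in Hira-null at day 0. At day 15 it read 62.2 and 58.1 FPKM in WT and 17.1 and 20.7 FPKM in the libraries labelled Hira-null. Col5a2 was lower with the Hira-null label at both days (by −1.39 with an adjusted p of 8.76e-05 at day 0 and −1.63 with 6.96e-05 at day 15, log2 scale). In FPKM without the added 1, the WT mean was 6.62 times the other at day 0 and 3.18 times at day 15.

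The other type V chains were not called lower with the Hira-null label at either day. Col5a1 (chr2:27741945-27895034) read 10.4 and 8.96 FPKM in WT and 14.4 and 13.0 FPKM in Hira-null at day 0, then 133 and 125 against 107 and 146 FPKM at day 15, where the groups overlapped (log2 fold change −0.05, 95% interval −0.37 to 0.27). Its day 0 difference, higher in Hira-null by 0.46 (adjusted p = 0.0255), was lost without WT day 0 replicate 2 (adjusted p = 0.111) and without Hira-null day 0 replicate 1 (0.156) or 2 (0.0685). The ratio of Col5a1 to Col5a2 FPKM, whose products share one molecule, was 3.60 ± 0.428 in WT and 33.6 ± 1.08 in Hira-null at day 0, and 2.15 ± 0.0111 and 6.66 ± 0.521 at day 15. Col5a1 shares exon sequence with 2810430I11Rik and Gm13372 on the other strand. For comparison, the Col1a1 to Col1a2 ratio was 2.83 ± 0.70, 5.14 ± 1.18, 2.90 ± 0.127 and 3.49 ± 0.148 in the same order of groups. Col5a3 stayed low, at 1.54 and 2.04 FPKM in WT and 2.82 and 2.81 FPKM in Hira-null at day 0 and at 0.750 and 0.505 against 0.922 and 1.29 FPKM at day 15. It was the fibrillar gene that fell over time in both genotypes (−0.78, adjusted p = 0.00383 in WT, and −0.86, adjusted p = 0.00192 in Hira-null), and neither genotype difference passed the test.

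Fibrillar collagens of cartilage were higher with the Hira-null label at day 15. Col2a1 (chr15:97806033-97835155), the type II chain of cartilage and notochord, read 2.14 and 2.40 FPKM in WT and 2.69 and 3.70 FPKM in Hira-null at day 0, then 44.2 and 39.6 FPKM in WT and 154 and 213 FPKM in the libraries labelled Hira-null at day 15. Col11a1 (chr3:113733458-113923636), whose product lies inside type II fibrils, read 1.29 and 1.33 against 0.820 and 1.06 FPKM at day 0 and 30.6 and 28.9 against 72.2 and 82.6 FPKM at day 15. Col11a2, a second chain of type XI, read 0.436 and 0.211 against 0.675 and 0.365 FPKM at day 0 and 2.03 and 1.84 against 8.27 and 9.65 FPKM at day 15. None of these passed the test between genotypes at day 0, and at day 15 both libraries labelled Hira-null lay above both WT libraries for each. The day 15 log2 fold change was 2.09 for Col2a1 (standard error 0.17, adjusted p = 7.62e-05), 1.35 for Col11a1 (0.12, adjusted p = 1.22e-04) and 1.76 for Col11a2 (0.18, adjusted p = 1.99e-04), which puts the means 4.38, 2.60 and 4.63 times above WT. All 3 also rose over time within each genotype.

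The remaining fibrillar genes, Col27a1 and Col24a1, encode chains found in cartilage and in developing bone and cornea. Col27a1 (chr4:62875038-62996025) read 2.79 and 2.51 FPKM in WT and 0.877 and 0.731 FPKM in Hira-null at day 0, then 4.95 and 4.62 against 12 and 14.7 FPKM at day 15. It was lower in Hira-null at day 0 (log2 fold change −1.02, adjusted p = 9.29e-04) and higher with that label at day 15 (1.30, adjusted p = 3.61e-04), and the difference between the days, 2.32, was the largest of any collagen tested (standard error 0.21, adjusted p = 2.11e-04). Col24a1 was at 0.0190 and 0.0166 FPKM in WT and 0.0816 and 0.0159 FPKM in Hira-null at day 0, from 1 to 4 fragments a library. At day 15 it read 1.15 and 1.08 FPKM in WT, from 77 and 90 fragments, and 0.0472 and 0.294 FPKM in the libraries labelled Hira-null, from 3 and 20 fragments (log2 fold change −0.86, adjusted p = 0.00551). Of the 11 fibrillar genes, 4 were thus higher and 5 lower with the Hira-null label at day 15, against 1 and 3 at day 0. That is 36.4% and 45.5% at day 15, where all genes had 18.6% and 18.8%, and 9.09% and 27.3% at day 0, where all genes had 20.8% and 19.4%.

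**Figure D3:**
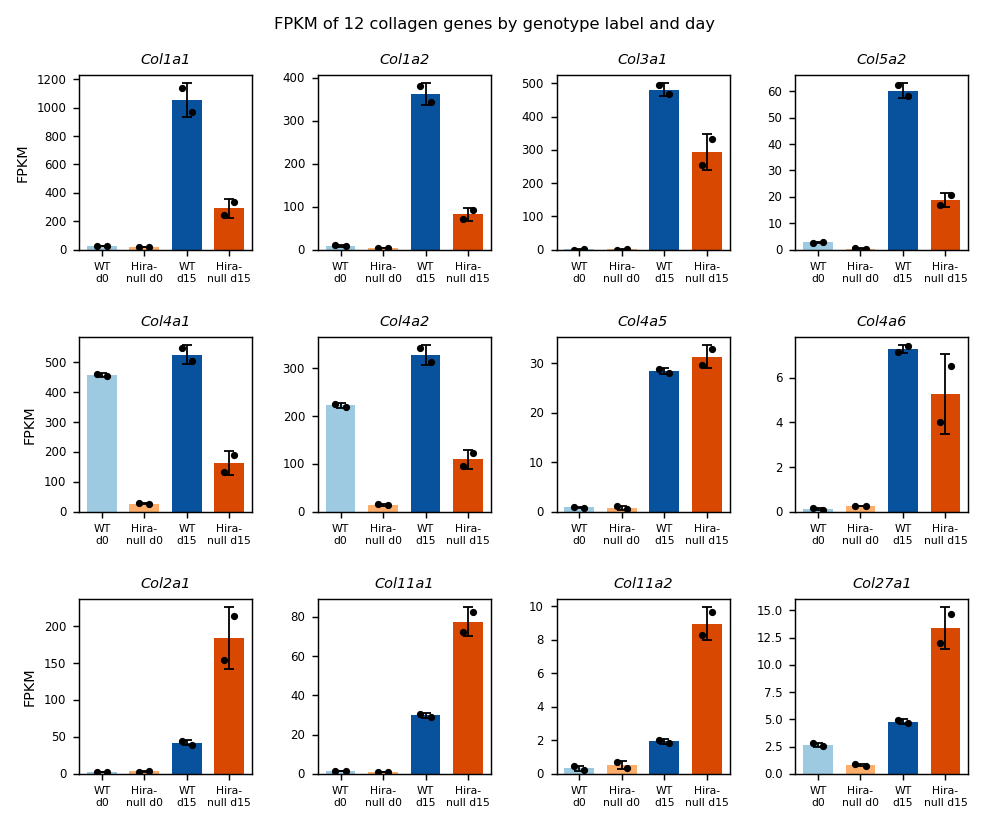
FPKM (vertical axes, each starting at 0 with its own scale) of 12 fibrillar and type IV collagen genes by genotype label and day (horizontal axes, d0 and d15). Each bar is the mean of a group with its SD (n = 2), and each point is 1 library. Col1a1, Col1a2, Col3a1, Col5a2, Col4a1 and Col4a2 are lower in the libraries labelled Hira-null at day 15, while Col2a1, Col11a1, Col11a2 and Col27a1 are higher there.

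At day 15 the marker genes of several cell types moved with the same labels, and their part in the collagen differences was not tested. Of all genes tested at day 15, 18.6% were higher and 18.8% lower with the Hira-null label, against which these lists are set. Of 11 tested fibroblast and mesenchyme markers, 8 (72.7%) were lower with the Hira-null label and the other 3 did not pass the test. The summed level of the list was 401 and 398 FPKM in WT against 189 and 188 FPKM. The periostin gene Postn read 134 and 131 against 52.9 and 46.3 FPKM, and Tcf21, a factor of epicardial and mesenchymal cells, 18.9 and 20.2 against 1.19 and 0.685 FPKM. Of the 11 estimates 10 lay below 0 and 1 above, that of Twist1, at 25.3 and 21.8 against 29.2 and 35.9 FPKM. Of 8 tested cartilage markers, 3 (37.5%) were higher (Sox9, Sox6 and Acan) and the other 5 did not pass the test. Means were lower for Hapln1 (4.24 FPKM in WT against 3.61), Matn3 (0.582 against 0.294) and Matn4 (1.49 against 1.32). The whole list summed to 32.7 and 32.1 FPKM in WT against 58.2 and 57.0 FPKM. Comp stayed at or below 0.525 FPKM and Matn1 at or below 1.07 FPKM in the 4 libraries. Of 4 tested notochord markers, 3 (75.0%) were higher (T, Foxa2 and Shh), with a list sum of 94.7 and 93.5 against 210.1 and 227 FPKM. Shh read 19.2 and 17.6 against 89.8 and 95.8 FPKM. Smooth muscle markers were lower for 6 of 6 (100%) and endothelial markers for 6 of 8 (75.0%), while neural markers were higher for 7 of 8 (87.5%). Bone markers were mixed, with 2 of 4 tested higher and 1 lower, and Bglap, the osteocalcin gene, was listed at 0 in every library. Cardiomyocyte markers were lower for 3 of 8 (37.5%) and did not pass the test for the other 5, summing to 183 and 177 FPKM in WT against 116 and 125 FPKM. That sum follows Myl7, at 68.9 and 64.9 against 12.4 and 11.9 FPKM. Of the 8 estimates 3 lay above 0 and 5 below, and Tnnt2 read 38.9 and 41.0 against 57.8 and 59.7 FPKM.

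The type IV pair Col4a1 and Col4a2, whose products join into the sheet common to all basement membranes, is arranged head to head on chromosome 8 with the starts of the genes overlapping by 22 bases in mm9. Col4a1 runs from 11312826 down to 11198423 on the minus strand and Col4a2 from 11312805 to 11449287 on the plus strand. The windows around their starts are shown because this pair had the largest genotype difference of the family. In RefSeq on GRCm38.p6, the window from 250 bases before to 50 bases after the start lies at chr8:11312777-11313076 for Col4a1 and at chr8:11312555-11312854 for Col4a2, so that 78 bases (chr8:11312777-11312854) belong to both. Each is written 5′ to 3′ on its own gene's strand, with CCAAT or its reverse complement ATTGG, and the GC box GGGCGG or its reverse complement CCGCCC, in capitals.
Col4a1: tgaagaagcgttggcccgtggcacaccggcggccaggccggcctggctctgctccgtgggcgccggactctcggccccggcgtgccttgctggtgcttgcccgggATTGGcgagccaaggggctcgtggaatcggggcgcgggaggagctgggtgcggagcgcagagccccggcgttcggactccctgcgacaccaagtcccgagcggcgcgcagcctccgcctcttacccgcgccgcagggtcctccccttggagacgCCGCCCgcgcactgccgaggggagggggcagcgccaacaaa
Col4a2: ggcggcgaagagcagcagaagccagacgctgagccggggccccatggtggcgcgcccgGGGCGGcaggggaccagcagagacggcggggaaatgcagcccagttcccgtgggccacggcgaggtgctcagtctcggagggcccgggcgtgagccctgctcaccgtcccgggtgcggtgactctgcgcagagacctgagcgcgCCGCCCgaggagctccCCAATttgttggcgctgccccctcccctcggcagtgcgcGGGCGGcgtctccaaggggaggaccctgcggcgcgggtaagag

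These windows hold 1 CCAAT match each, 1 GC box match for Col4a1 and 3 for Col4a2, and none for TATAA on either strand, where a match lying in the shared 78 bases counts for both. RefSeq windows were found for 35 of the 44 collagen genes, 38 windows in all. CCAAT occurred in 34.2% of them, GGGCGG in 60.5% and TATAA in 18.4%, on either strand, against 37.4%, 35.7% and 24.9% of all 32851 windows of this length. A match is a description of the letters, and no binding was measured here.

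Both genes were lower with the Hira-null label at each day. Col4a1 read 462 and 454 FPKM in WT and 27.9 and 26.8 FPKM in Hira-null at day 0, and 548 and 503 FPKM in WT and 133 and 189.8 FPKM in the libraries labelled Hira-null at day 15. Col4a2 read 226 and 219 FPKM in WT and 16.4 and 13.5 FPKM in Hira-null at day 0, and 342 and 313 against 95.6 and 123 FPKM at day 15. Hira-null was low throughout, and most so before differentiation. At day 0 the WT mean was 16.8 times that of Hira-null for Col4a1 (−4.02 ± 0.13 SE on the log2 scale, adjusted p = 1.15e-06) and 14.9 times for Col4a2 (−3.81 ± 0.12 SE, adjusted p = 1.15e-06). At day 15 it was 3.26 times for Col4a1 (−1.72 ± 0.14 SE, adjusted p = 7.35e-05) and 3.0 times for Col4a2 (−1.58 ± 0.13 SE, adjusted p = 7.30e-05). Both rose over the 15 days in Hira-null, by 2.50 and 2.78 on the log2 scale. In WT Col4a2 rose by 0.55 (adjusted p = 0.00357) and Col4a1 differed by 0.20 (adjusted p = 0.224), a value that was 1.07 with quantile normalization (adjusted p = 1.14e-04) and passed the test without Hira-null day 15 replicate 1 (0.0201) or 2 (0.0203). The genotype gap narrowed between the days by 2.30 for Col4a1 (adjusted p = 1.59e-04) and 2.23 for Col4a2 (adjusted p = 1.22e-04). The ratio of Col4a1 to Col4a2 FPKM was 2.06 ± 0.0160 in WT and 1.84 ± 0.200 in Hira-null at day 0, and 1.61 ± 0.00677 and 1.47 ± 0.111 at day 15.

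Most markers of parietal endoderm, the early embryonic tissue that lays down a thick type IV and laminin membrane, moved with these chains between genotypes. Their part was not tested. Among all genes tested, 20.8% were higher and 19.4% lower in Hira-null at day 0, and 18.6% and 18.8% with the label at day 15. Of 8 tested parietal endoderm markers at day 0, 7 (87.5%) were lower in Hira-null and 1 did not pass the test. The list summed to 1139 and 1097 FPKM in WT against 313 and 305 FPKM. Lama1, a laminin chain, read 159.7 and 154 FPKM in WT and 13.7 and 14.1 FPKM in Hira-null, and Srgn, the proteoglycan serglycin, 28.2 and 29.4 against 0.931 and 0.971 FPKM. At day 15, 7 (87.5%) were lower with the Hira-null label, and the list summed to 995 and 963 FPKM in WT against 657 and 689 FPKM. The 1 that did not pass the test at day 15, Plat, lay the other way, at 40.9 and 37.7 FPKM in WT against 48.6 and 52.6 FPKM. Sparc, which binds collagen, is in this list and in the processing list below. Visceral endoderm markers at day 0 were higher for 2 of 8 (25.0%) and lower for 1, Cubn (12.5%), near the shares of all genes. At day 15 they were lower for 7 of 8 (87.5%), with a sum of 149.6 and 142 FPKM in WT against 7.79 and 7.73 FPKM. Pluripotency markers at day 0 were higher in Hira-null for 6 of 8 (75.0%) and lower for 1 (12.5%), Zfp42 (471 and 444 against 170.1 and 188 FPKM). The list was led by Dppa5a (1131 and 933 against 2352 and 2358 FPKM) and summed to 4839 and 4844 FPKM in Hira-null against 3291 and 3099 FPKM in WT.

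The other type IV chains, used in the membranes of kidney, lung, eye and smooth muscle, lie in 2 further head to head pairs. Col4a5 and Col4a6 start 1308 bases apart on the X chromosome. Col4a5 (X, 137909928 to 138123778) read 1.0 and 0.821 FPKM in WT and 1.12 and 0.508 FPKM in Hira-null at day 0, and 28.8 and 28.0 against 29.7 and 33.0 FPKM at day 15. Col4a6 (X, 137599946 to 137908619) read 0.143 and 0.0712 against 0.263 and 0.257 FPKM at day 0, and 7.15 and 7.41 against 4.02 and 6.53 FPKM at day 15. Both rose over time, Col4a5 by 3.94 in WT and 4.18 in Hira-null and Col4a6 by 2.90 and 2.29, and neither passed the test between genotypes at either day. The 95% interval of the day 15 difference was −0.26 to 0.54 for Col4a5 and −0.89 to 0.03 for Col4a6, and without Hira-null day 15 replicate 2 Col4a6 was lower with that label (−0.72, adjusted p = 0.0195). Col4a3 and Col4a4, 71 bases apart on chromosome 1, reached at most 0.248 and 0.323 FPKM, from 19 and 24 fragments, and were not tested.

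Type VI collagen forms the beaded filaments that lie next to muscle fibres and fibroblasts, from the products of Col6a1, Col6a2 and Col6a3. Col6a1 (chr10:76171537-76188913) read 0.205 and 0.744 FPKM in WT and 0.622 and 1.46 FPKM in Hira-null at day 0, and 79.3 and 72.7 against 21.3 and 26.7 FPKM at day 15. Col6a2 (chr10:76058507-76086375) read 1.75 and 1.05 against 1.37 and 1.31 FPKM at day 0, and 61.8 and 52.9 against 15.4 and 17.6 FPKM at day 15. Col6a3 (chr1:92663435-92740529) read 0.0877 and 0.12 against 0.201 and 0.0945 FPKM at day 0, and 25.5 and 23.9 against 12.8 and 14.7 FPKM at day 15. These 3 chains overlapped between genotypes at day 0 and were all lower with the Hira-null label at day 15, by −1.63 (adjusted p = 0.00112), −1.74 (1.45e-04) and −0.80 (0.00311) on the log2 scale. Without WT day 15 replicate 1 the Col6a3 call was lost (adjusted p = 0.0507). The ratio of Col6a1 to Col6a2 at day 15 was 1.33 ± 0.0642 in WT and 1.45 ± 0.0995 with the Hira-null label. Col6a4, Col6a5 and Col6a6, a cluster on chromosome 9 whose chains can take the place of that of Col6a3, stayed between 0.0339 and 2.23 FPKM. Of these Col6a4 was higher in Hira-null at day 0 (log2 fold change 0.72, adjusted p = 0.00557) and Col6a6 lower with the label at day 15 (−0.90, adjusted p = 0.00477).

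Network-forming collagens make the hexagonal lattices of the cornea and of cartilage turning to bone. Col8a1 read 1.91 and 0.741 FPKM in WT and 0.313 and 0.223 FPKM in Hira-null at day 0, and 11.1 and 10.9 against 11.9 and 11.8 FPKM at day 15. It was lower in Hira-null at day 0 (−0.83, adjusted p = 0.0164), though not without WT day 0 replicate 1 (−0.46, adjusted p = 0.0536), without Hira-null day 0 replicate 1 (adjusted p = 0.0563) or 2 (0.0799). Col8a2 read 0.251 and 0.765 against 0.437 and 0.394 FPKM at day 0, and 6.35 and 6.72 against 8.94 and 12 FPKM at day 15 (log2 fold change 0.59, adjusted p = 0.0524). This day 15 difference passed the limma test with FPKM 1 or more in 4 libraries (adjusted p = 0.0482) and without weights (0.048). It also passed with median centring (0.0493), with each day fitted alone (0.0305) and with limma-voom on fragments (7.42e-04). Col10a1 (chr10:34109787-34116891), made by the hypertrophic cells of the growth plate, was listed at 0 in all 4 day 0 libraries, which leaves room for up to 3 fragments in each. At day 15 it read 0.102 and 0.409 FPKM in WT, from at least 1 and 5 fragments. The libraries labelled Hira-null read 2.58 and 4.33 FPKM, from at least 24 and 43 fragments (1.81 ± 0.22 SE on the log2 scale, adjusted p = 4.61e-04). Col10a1 shares exons with Nt5dc1 on the other strand, so part of its count may belong to that gene. Col7a1, the anchoring fibril chain beneath the epidermis, read 2.54 and 1.93 against 3.37 and 2.83 FPKM at day 0, and 2.64 and 3.29 against 6.26 and 8.08 FPKM at day 15. It was higher with the Hira-null label at day 15 (1.04, adjusted p = 0.00270), with an adjusted p of 0.0511 without WT day 15 replicate 1.

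FACIT collagens sit on the surface of fibrils, type IX on those of cartilage and types XII, XIV and XVI on those of looser tissue. Col22a1, known from junctions of muscle and tendon, had the largest positive genotype difference at day 15 of any collagen tested, and read 3.76 and 2.79 FPKM in WT against 15.3 and 21.7 FPKM (2.18 ± 0.20 SE on the log2 scale, adjusted p = 1.13e-04). At day 0 it read 1.93 and 1.72 against 1.54 and 1.89 FPKM, which overlap. Col22a1 shares exon sequence with Gm16308 on the other strand. Col12a1 read 0.533 and 0.757 against 0.783 and 0.476 FPKM at day 0 and 24.1 and 23.8 against 38.0 and 37.1 FPKM at day 15 (0.63, adjusted p = 0.00945). This call was lost without WT day 15 replicate 1 (adjusted p = 0.0930) or 2 (0.102) and with a pseudocount of 0.1 (0.0641). Col14a1 went down with the label, at 9.37 and 8.96 against 3.29 and 3.06 FPKM at day 15 (−1.28, adjusted p = 3.82e-04), from 0.126 and 0.0551 against 0.0226 and 0.106 FPKM at day 0. Col16a1 also did, at 15.8 and 12.7 against 4.61 and 6.92 FPKM at day 15 (−1.19, adjusted p = 0.00270, and 0.0530 without WT day 15 replicate 1), from 1.04 and 0.864 against 1.48 and 0.984 FPKM at day 0.

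The 3 type IX chains, which assemble into a single molecule, were called in different directions. Col9a1 read 0.557 and 0 FPKM in WT and 0.0351 and 0 FPKM in Hira-null at day 0, and 5.12 and 4.59 against 9.16 and 13.0 FPKM at day 15. It was higher with the Hira-null label at day 15 (1.03, adjusted p = 0.0106), a call lost without WT day 15 replicate 1 (adjusted p = 0.0811) or 2 (0.112), without Hira-null day 15 replicate 2 (0.0576) and with a pseudocount of 0.1 (0.248). Col9a2 read 6.58 and 7.97 FPKM in WT and 19.5 and 20.6 FPKM in Hira-null at day 0, and 20.6 and 18.7 against 13.5 and 15 FPKM at day 15. It was thus higher in Hira-null at day 0 (1.35, adjusted p = 7.06e-05) and lower with the label at day 15 (−0.44, adjusted p = 0.0192), the second of which was lost without WT day 15 replicate 1 (adjusted p = 0.171) or 2 (0.0835) or without Hira-null day 15 replicate 1 (0.0755). Col9a3 ranged from 1.19 to 4.19 FPKM over the 8 libraries, was higher in Hira-null at day 0 (0.97, adjusted p = 0.00883, and 0.0534 without Hira-null day 0 replicate 1) and shares exons with Tcfl5 on the other strand. The Col9a1 to Col9a2 ratio at day 15 was 0.247 ± 0.00225 in WT and 0.774 ± 0.135 with the Hira-null label. Col20a1 ranged from 0.0973 to 1.78 FPKM and was higher in Hira-null at day 0 (0.73, adjusted p = 0.0113), which did not hold without WT day 0 replicate 1 (adjusted p = 0.0573) or without Hira-null day 0 replicate 1 (0.0516) or 2 (0.0674).

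Transmembrane collagens span the membrane of epithelial, muscle and nerve cells and can be shed from it. Col13a1, found where muscle meets nerve and tendon, read 0.859 and 0.823 FPKM in WT and 3.86 and 3.27 FPKM in Hira-null at day 0, and 3.99 and 3.83 against 1.95 and 1.93 FPKM at day 15. Its order reversed between the days, from higher in Hira-null (1.31, adjusted p = 2.44e-04) to lower with that label (−0.74, adjusted p = 0.00516, and 0.0569 without WT day 15 replicate 1). Col23a1 read 0.0719 and 0.125 against 0.0771 and 0.0804 FPKM at day 0 and 4.61 and 4.65 against 1.72 and 1.80 FPKM at day 15 (−1.03, adjusted p = 0.00112). Col25a1, a collagen of neurons and muscle innervation, read 0 and 0.206 against 0.117 and 0.0913 FPKM at day 0 and 7.04 and 7.19 against 1.62 and 2.58 FPKM at day 15 (−1.40, adjusted p = 8.42e-04). Col17a1, a chain of the hemidesmosome, ranged from 0.601 to 2.44 FPKM and was higher in Hira-null at day 0 (0.75, adjusted p = 0.00993, and 0.0895 without Hira-null day 0 replicate 1).

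Multiplexins are proteoglycan collagens of basement membranes, and the end of the type XVIII chain is released as endostatin. Col18a1 read 90.7 and 86.5 FPKM in WT and 149 and 144 FPKM in Hira-null at day 0, and 70.1 and 67.0 against 106 and 132 FPKM at day 15. It was the one collagen higher with the Hira-null label at both days (0.72, adjusted p = 5.81e-04, and 0.78, adjusted p = 4.93e-04), opposite to Col4a1 and Col4a2, with which its product shares the basement membrane. Over time it fell by 0.37 in WT (adjusted p = 0.00826) and by 0.30 in Hira-null (adjusted p = 0.0190), but quantile normalization turned both around, to 0.15 (adjusted p = 0.182) and 0.25 (adjusted p = 0.0404). Leaving out WT day 15 replicate 2 (adjusted p = 0.0604), or either Hira-null replicate of day 0 (0.0979 and 0.0607) or replicate 1 of day 15 (0.101), also ended the call in that genotype. Col15a1 read 0.0255 and 0.134 against 0.164 and 0.727 FPKM at day 0 and 15.7 and 16.3 against 7.43 and 8.35 FPKM at day 15 (−0.94, adjusted p = 0.00722). Col15a1 shares exon sequence with Gm12426 on the other strand. Its difference had an adjusted p of 0.0758 and 0.0874 without WT day 15 replicate 1 and 2, and 0.153 with a pseudocount of 0.1. Col26a1 did not pass the test between genotypes, at 1.16 and 2.06 against 2.31 and 1.77 FPKM at day 0 and 11.4 and 11.7 against 10.5 and 12.5 FPKM at day 15, with a 95% interval of −0.45 to 0.44 for the day 15 difference. Of the members not tested, Col19a1 reached at most 0.227 FPKM and Col28a1 at most 0.557 FPKM.

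**Figure D4:**
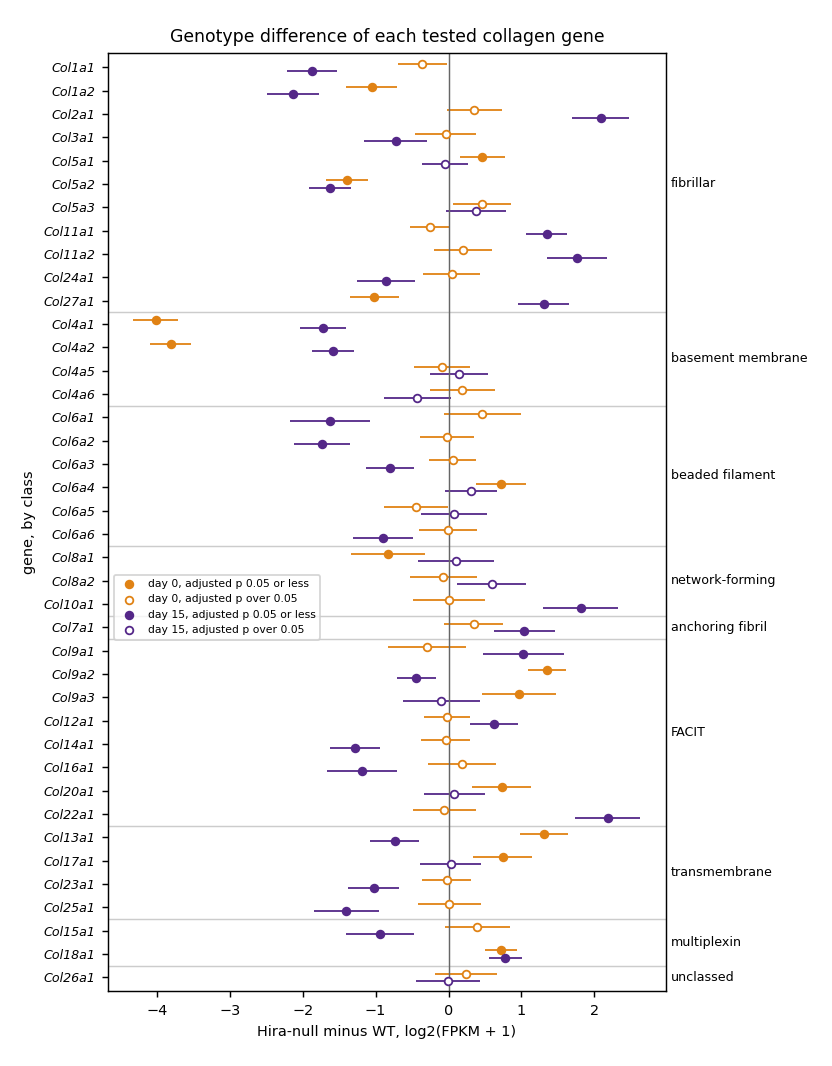
Difference between libraries labelled Hira-null and WT (horizontal axis, log2(FPKM + 1)) at day 0 (orange) and day 15 (purple) for each of the 40 tested collagen genes (rows, by class). Points are limma estimates with 95% intervals, filled where adjusted p was 0.05 or less, and Col4a1 and Col4a2 lie farthest left at day 0 while Col22a1 and Col2a1 lie farthest right at day 15.

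A test of the genotype difference at day 15 against that at day 0 passed for 26 of the 40 tested genes. It rose most for Col27a1 (2.32), Col4a1 (2.30), Col22a1 (2.24) and Col4a2 (2.23), and fell most for Col6a1 (−2.09, adjusted p = 0.00223), Col13a1 (−2.05, adjusted p = 3.38e-04), Col9a2 (−1.79, adjusted p = 2.20e-04) and Col6a2 (−1.72, adjusted p = 0.00107). These values describe different courses. For Col4a1 and Col4a2 a gap present at day 0 was smaller at day 15, for Col22a1, Col2a1, Col11a1, Col6a1 and Col6a2 a gap seen at day 15 had not passed the test at day 0, and for Col27a1, Col9a2 and Col13a1 the sign changed with a call at each day.

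The enzymes and chaperones that fold and modify collagen make up the first of the pathway lists. Of 23 tested, 1 was higher and 8 lower in Hira-null at day 0, and 2 were higher and 5 lower with the label at day 15 (medians −0.04 and −0.08). The shares were 4.35% and 34.8% at day 0 and 8.70% and 21.7% at day 15, and all genes had 20.8% and 19.4% at day 0 and 18.6% and 18.8% at day 15, against which the lists below are also set. Serpinh1, the chaperone HSP47 that binds only collagen, read 119 and 121 FPKM in WT and 76.7 and 76.5 FPKM in Hira-null at day 0 (−0.64, adjusted p = 3.66e-04), and 361 and 341 against 299 and 349 FPKM at day 15 (−0.12, adjusted p = 0.268). P4ha1, a subunit of prolyl hydroxylase, read 57.9 and 56.2 against 59.7 and 59.6 FPKM at day 0 and 47.8 and 44.3 against 26.7 and 25.9 FPKM at day 15 (−0.79, adjusted p = 1.27e-04). Plod2, a lysyl hydroxylase, was lower in Hira-null at day 0, at 54.1 and 57.3 against 37.8 and 35.0 FPKM (−0.60, adjusted p = 6.40e-04), and read 54.9 and 55.7 against 54.6 and 48.6 FPKM at day 15. Colgalt2, which adds galactose to hydroxylysine, read 0.602 and 0.80 FPKM in WT and 6.78 and 5.70 FPKM in the libraries labelled Hira-null at day 15 (2.09, adjusted p = 7.35e-05).

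Genes of procollagen processing, cross-linking and fibril assembly numbered 19 tested, of which 5 were higher and 5 lower in Hira-null at day 0 and 4 higher and 9 lower with the label at day 15 (median −0.24). These are 26.3% each at day 0, and 21.1% and 47.4% at day 15. Lox, the lysyl oxidase that starts cross-links, read 0.220 and 0.264 FPKM in WT and 1.18 and 0.692 FPKM in Hira-null at day 0 (0.63, adjusted p = 0.0120), and 26.3 and 30.1 against 24.8 and 22.6 FPKM at day 15 (−0.24, adjusted p = 0.275). Loxl2, its relative, read 23.8 and 23.4 against 23.8 and 24.2 FPKM at day 0 and 62.1 and 61.6 against 51.6 and 47.0 FPKM at day 15 (−0.32, adjusted p = 0.0112). Bgn and Lum encode small proteoglycans that bind fibrils. Bgn read 119 and 113 FPKM in WT against 18.9 and 20 FPKM at day 15 (−2.52, adjusted p = 8.67e-05) and Lum 36.7 and 42.2 against 7.25 and 8.30 FPKM (−2.20, adjusted p = 2.01e-04). At day 0 Lum was listed at 0 in 3 of the 4 libraries and Bgn read 5.40 and 8.72 against 3.41 and 2.14 FPKM. Dcn and Lum are also in the fibroblast list above.

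Collagen receptors numbered 7 tested, with 1 higher and 1 lower in Hira-null at day 0 and 3 higher and 3 lower with the label at day 15, or 14.3% each and 42.9% each. Ddr1 and Ddr2, the receptor kinases that bind collagen, both rose over time and both stood higher with the Hira-null label at day 15. Ddr1 read 14.5 and 16.5 against 20.1 and 17.6 FPKM at day 0 and 42.9 and 40.8 against 83.7 and 101 FPKM at day 15 (1.12, adjusted p = 2.01e-04). Ddr2 read 1.08 and 1.44 against 1.39 and 1.43 FPKM at day 0 and 12.8 and 13.3 against 24.8 and 22.4 FPKM at day 15 (0.80, adjusted p = 0.00234). The 3 lower with the label at day 15 were Itgb1, Mrc2 and Itga11. Itgb1 read 136 and 140 against 49.1 and 48.2 FPKM at day 0 and 267 and 297 against 212 and 203 FPKM at day 15. The integrin chain Itga1 read 2.73 and 3.5 against 4.88 and 4.02 FPKM at day 15 (0.41, adjusted p = 0.112), and Itga2 stayed at or below 0.679 FPKM and was not tested. In the breakdown list, 9 genes were tested, with 1 higher and 3 lower at day 0 (11.1% and 33.3%) and 2 higher and 3 lower at day 15 (22.2% and 33.3%). Mmp2, a gelatinase, read 18.4 and 15.3 FPKM in WT and 26.4 and 26.7 FPKM in Hira-null at day 0 (0.63, adjusted p = 7.20e-04), and 155 and 156 against 95.2 and 92.8 FPKM at day 15 (−0.72, adjusted p = 4.82e-04). Mmp14, which cuts collagen at the cell surface, read 57.3 and 59.9 against 70.2 and 67.0 FPKM at day 15 (0.22, adjusted p = 0.0826).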

How the data were processed

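Poly(A) RNA from 8 samples had been extracted with Trizol, made into libraries with a KAPA stranded kit and sequenced as paired ends on a NextSeq instrument. Submitters' processing notes name mm9, Bowtie 0.12.2 and DESeq2 1.6.3, and the counter and annotation are not named in the sources read. The authors deposited FPKM values, scaled by gene length and library size. All positive FPKM values were whole multiples of 1 fragment within 0.1, from which fragments were recovered. The smallest gene length that gave whole numbers was taken, so a recovered count of a gene is a minimum. FPKM 1 or more in at least 2 libraries was required, and log2(FPKM + 1) was fitted with limma 3.58.1 in R 4.3.3, with 4 group means, 1 weight per day (1.03 and 0.968), a mean-variance trend and Benjamini-Hochberg adjustment with a threshold of 0.05. With 4 residual and 4.7 prior degrees of freedom, the latter from the spread over all genes tested, p-values measure only the spread between these samples. The fragment count of a single library gives its counting error alone, and replicate libraries differed by more than that (chi-square per degree of freedom 2.89 to 5.93). The script was tested on simulated data. Other tables used Python 3.11.15 with pandas 2.3.3.

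Members and gene lists were chosen with earlier results of these data known. All tested fibrillar and basement membrane genes are named, with other members at a log2 fold change of 1 or more between genotypes past the test or at a group mean of 10 FPKM or more, and further members are named where a count was small. Gene positions are from the NCBIM37 annotation (mm9). Spreadsheet software had turned 28 gene names into dates, which were kept as features. Alternatives were other pseudocounts, filters, scalings, fits and thresholds, leaving out each library, the replicate block and, chosen after seeing the data, limma-voom on recovered fragments.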

Additional observations from a re-analysis of the deposited data

Results flagged for a closer look

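For 26 of the 40 tested collagen genes the genotype difference at day 15 was not the same as that at day 0, by limma's test of the difference between both log2 fold changes (day 15 minus day 0). Fibrillar genes gave 2.32 for Col27a1, 1.74 for Col2a1, 1.602 for Col11a1, 1.56 for Col11a2, −1.51 for Col1a1, −1.07 for Col1a2 and −0.90 for Col24a1. Type IV genes gave 2.30 for Col4a1 and 2.23 for Col4a2. Beaded filament genes gave −2.09 for Col6a1, −1.72 for Col6a2, −0.86 for Col6a3 and −0.90 for Col6a6. FACIT genes gave 2.24 for Col22a1, 1.32 for Col9a1, 0.64 for Col12a1, −1.79 for Col9a2, −1.07 for Col9a3, −1.25 for Col14a1 and −1.37 for Col16a1. Transmembrane genes gave −2.05 for Col13a1, −1.41 for Col25a1 and −1.0 for Col23a1, and network-forming genes and the multiplexin Col15a1 gave 1.81 for Col10a1, 0.93 for Col8a1 and −1.33 for Col15a1.

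Of these calls, 5 of the 11 above 0 and 9 of the 15 below 0 were lost under at least 1 alternative. With a pseudocount of 0.1 and with limma-voom on fragments, adjusted p was 0.112 and 0.441 for Col14a1, 0.105 and 0.352 for Col23a1, and 0.0513 and 0.0565 for Col11a2. In the same order it was 0.0717 and 0.218 for Col6a3, 0.127 and 0.173 for Col9a1, and 0.154 and 0.0816 for Col12a1. With that pseudocount alone, Col25a1 (0.0798), Col6a6 (0.0567), Col9a3 (0.0523) and Col24a1 (0.0583) lost their calls, and Col10a1 did with limma-voom (0.0966). Col8a1 lost its call without any 1 of 7 libraries (adjusted p from 0.0741 to 0.169), Col12a1 without any 1 of 6 (0.0765 to 0.134) and Col9a3 without any 1 of 6 (0.0761 to 0.116). Without WT day 15 replicate 1, Col1a2 (adjusted p = 0.0511), Col6a3 (0.0663), Col6a6 (0.0652), Col9a1 (0.0679), Col16a1 (0.0535) and Col24a1 (0.0522) also lost theirs, as Col9a1 did without WT day 15 replicate 2 (0.0828). Col6a6 lost it too without WT day 0 replicate 2 (0.0578), and Col6a6 and Col24a1 without Hira-null day 0 replicate 1 (0.0605 and 0.0713) or 2 (0.0702 and 0.0515). The libraries labelled Hira-null at day 15 did not have a lower Hira level than WT, as given above.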

How the results depend on the processing

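Of the gene-level values recomputed under 19 alternatives, 3518 kept direction and side of the threshold, 111 lost and 44 gained a call, and 54 that stayed uncalled changed sign. The sign of called values changed for Col18a1 between days with quantile normalization, to 0.15 in WT and 0.25 in Hira-null. The cause of this Col18a1 change was not tested. For Col5a2, the uncalled difference between the days' genotype effects (−0.23) became a call of the other sign with a pseudocount of 0.1 (0.79, adjusted p = 0.0273). Its Hira-null mean at day 0 was 0.407 FPKM, where a pseudocount of 1 shrinks the fold. In FPKM itself the WT mean of Col5a2 was 6.62 times the Hira-null mean at day 0 and 3.18 times at day 15. Requiring a log2 fold change of 1 or more left 2 genes higher in Hira-null at day 0, 11 lower at day 15, and 1 in WT and 0 in Hira-null that fell over time. With FPKM 1 or more in 4 libraries, 2 fell in WT and 5 in Hira-null, since fewer genes were tested. With a pseudocount of 0.1, 8 genes had a genotype difference that moved down between the days.

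Leaving out each library gave 5 to 8 higher and 5 to 7 lower at day 0, 7 to 11 and 12 to 19 at day 15, 30 to 32 and 2 to 4 over time in WT, 29 in every case and 6 to 8 in Hira-null, and 8 to 11 and 9 to 18 for the difference between days. The lowest of these came without Hira-null day 0 replicate 1 (5), WT day 15 replicate 2 (2) and WT day 15 replicate 1 (9). With the replicate block the counts were 8 and 6, 10 and 18, 31 and 4, 29 and 8, and 10 and 16, and the calls that changed were those of Col3a1 (adjusted p = 0.0253) and Col12a1 (0.0566) for the difference between days. Same-numbered libraries did not deviate together (r from −0.097 to 0.046). This shows no shared deviation across genes and cannot tell whether same-numbered samples were handled together. With limma-voom on fragments, chosen after seeing the data, the counts were 10 and 7, 11 and 19, 33 and 4, 29 and 8, and 8 and 14.

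On summed log2 values, fibrillar chains made 31.7%, 29.4%, 36.2% and 37.6% and basement membrane chains 27.6%, 16.6%, 16.4% and 14.98% of the pool in WT and Hira-null at day 0 and then at day 15. Without Col1a1 the shares of summed FPKM were 3.64%, 10.1%, 46.9% and 55.9%, and 82.6%, 16.5%, 37.4% and 21.3%. Single libraries ranged from 6.396% to 6.46%, 15.9% to 16.3%, 62.8% to 63.6% and 62.7% to 63.8% for fibrillar, and 80.16% to 80.19%, 14.9% to 15.8%, 25.7% to 26.2% and 17.5% to 17.98% for basement membrane chains. Genes below about 1 FPKM rest on few fragments, so their folds are limited by depth.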
